A study of Rattus norvegicus with 5 samples.

Results

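The striatum is built of striosomes, small labyrinthine patches, set in a larger surrounding matrix, and 10 genes that mark these compartments were followed through RNA sequencing libraries of rat striatal neurons. The 6 striosome genes were Oprm1, Kremen1, Lypd1, Nnat, Sema5b and Bach2, and the 4 matrix genes were Calb1, Epha4, Sgk1 and Rasgrp2. They were found by symbol in the authors' deposited comparison, and all 10 passed the filter on low counts, out of 13811 genes tested and 32285 genes counted. The choice of these genes did not use the values given here, but it was made with results of these libraries known.

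Each library holds RNA of neurons cut out of rat striatum by laser, a neuron having been picked because it carried a fluorescent tracer infused where its axon ends. Neurons labelled striatomesencephalic, which project to the midbrain and form the direct pathway, gave 2 libraries. Neurons labelled striatopallidal, which project to the pallidum and form the indirect pathway, gave 3 libraries. The sources used here do not give strain, age, sex, treatment or the animal behind each library. The p-values therefore measure only the spread between these libraries, which may be technical.

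Both compartments hold neurons of both pathways. Striosomes are classically seen as patches rich in mu opioid receptor, receive limbic cortical input and include neurons that reach the dopamine cells of the midbrain, while the matrix is rich in calbindin and is tied to sensorimotor and associative cortex. The comparison of the neuron types therefore asks how far 2 populations separated by axon target also differ in genes known for compartment. The labels give no compartment for the captured cells. Fewer cells from one compartment and less RNA per cell cannot be told apart in these libraries, whose number of cells the sources used here do not give.

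In these data, Lypd1 and Nnat were higher in both striatomesencephalic libraries than in all 3 striatopallidal libraries, Kremen1 was lower, and the mu opioid receptor gene Oprm1 overlapped between the groups. All 4 matrix genes had lower fitted values in striatomesencephalic libraries. With edgeR's quasi-likelihood test, adjusted over the whole table by Benjamini-Hochberg, 0% of the 13811 genes and no member passed 0.05, and the members' adjusted p ran from 0.779 to 0.991. At an unadjusted p below 0.05, 839 genes or 6.07% stood out, and 3 of the 10 members did: Nnat, Lypd1 and Kremen1. Nnat alone did so when either striatomesencephalic library or striatopallidal replicate 3 was left out, and without striatopallidal replicate 1 the 3 were Nnat, Lypd1 and Sgk1. DESeq2, run as an alternative, called 226 genes, 1.64% of those tested and 1.75% of the 12919 to which it gave an adjusted p. Of the members it called Nnat alone (adjusted p = 0.0270).

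RefSeq promoter sequences, 250 bases before to 50 after an annotated start, were at hand for 6 of the 10 members in 9 windows. The 4 printed here belong to the striosome genes Lypd1 and Bach2, which had positive fitted differences, and to the matrix genes Sgk1 and Rasgrp2, which had negative ones, so that the start regions of genes on either side can be read side by side. The window of Sgk1 is the one of its 3 with the most motif matches. Capitals mark matches, on either strand, to 7 motifs: the GC box GGGCGG, the CCAAT box CCAAT, the TATA box TATAAA, the cAMP response element TGACGTCA, the AP-1 site TGANTCA, the glucocorticoid receptor half-site TGTTCT and the E-box CAGCTG. No matches overlapped one another in these windows.
Lypd1 (GRCr8, chr13:39921072-39921371, minus strand): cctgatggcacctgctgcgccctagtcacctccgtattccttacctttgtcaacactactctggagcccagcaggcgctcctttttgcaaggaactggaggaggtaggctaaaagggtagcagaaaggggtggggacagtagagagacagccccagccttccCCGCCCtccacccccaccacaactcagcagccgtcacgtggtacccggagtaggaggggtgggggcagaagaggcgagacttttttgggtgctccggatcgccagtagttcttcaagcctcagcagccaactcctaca
Bach2 (GRCr8, chr5:51513155-51513454, plus strand): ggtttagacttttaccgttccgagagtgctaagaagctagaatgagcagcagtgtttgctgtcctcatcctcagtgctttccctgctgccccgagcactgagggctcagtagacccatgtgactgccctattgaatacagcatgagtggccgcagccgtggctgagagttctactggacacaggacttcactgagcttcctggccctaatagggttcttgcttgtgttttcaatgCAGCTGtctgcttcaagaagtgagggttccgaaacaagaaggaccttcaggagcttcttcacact
Sgk1 (GRCr8, chr1:24804782-24805081, minus strand): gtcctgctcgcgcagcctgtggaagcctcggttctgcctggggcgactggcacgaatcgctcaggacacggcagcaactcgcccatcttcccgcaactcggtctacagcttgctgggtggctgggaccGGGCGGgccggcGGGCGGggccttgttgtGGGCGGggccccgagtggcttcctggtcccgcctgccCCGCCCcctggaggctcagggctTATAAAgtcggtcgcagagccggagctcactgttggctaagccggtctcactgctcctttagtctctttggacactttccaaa
Rasgrp2 (GRCr8, chr1:213136484-213136783, plus strand): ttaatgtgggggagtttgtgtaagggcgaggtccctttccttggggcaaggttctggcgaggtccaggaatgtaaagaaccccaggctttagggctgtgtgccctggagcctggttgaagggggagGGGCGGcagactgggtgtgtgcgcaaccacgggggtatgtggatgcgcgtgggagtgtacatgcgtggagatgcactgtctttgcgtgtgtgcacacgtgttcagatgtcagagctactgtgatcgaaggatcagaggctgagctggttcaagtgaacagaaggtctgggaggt

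A GC box was found in the printed windows of Lypd1, Sgk1 and Rasgrp2, a motif that 33.1% of the 33469 windows in the RefSeq table hold. Sgk1 had 4 GC boxes and 1 TATA box, the latter being present in 14.2% of all windows. Bach2 had 1 E-box of this form, found in 15.1% of all windows. Of the 9 member windows, 4 held a GC box, 2 a TATA box, 1 an E-box and 1 an AP-1 site, the last present in 7.33% of all windows. The CCAAT box, the cAMP response element and the glucocorticoid half-site were in 0 of the 9, against 37.5%, 1.83% and 20.7% of all windows. A match is a stretch of letters and no more, and counts per gene do not show which start a transcript used.

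Levels are given in CPM, a gene's share of the library's counts scaled to 1000000, and compare libraries for 1 gene. They are not divided by transcript length, so they do not rank genes against each other. Library totals ran from 20845178 to 24805062 counts, where 3 counts, taken as the detection floor, equal 0.121 to 0.144 CPM. Every member was above that floor in every library. Striatopallidal replicate 2 stood apart from the rest, with Spearman correlations across genes of 0.785 to 0.820 with the other libraries, while every other library reached 0.870 or more with at least 1 other. The log2 ratio given for each gene is edgeR's estimate of the striatomesencephalic over the striatopallidal level, with its standard error (SE).

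**Figure D1:**
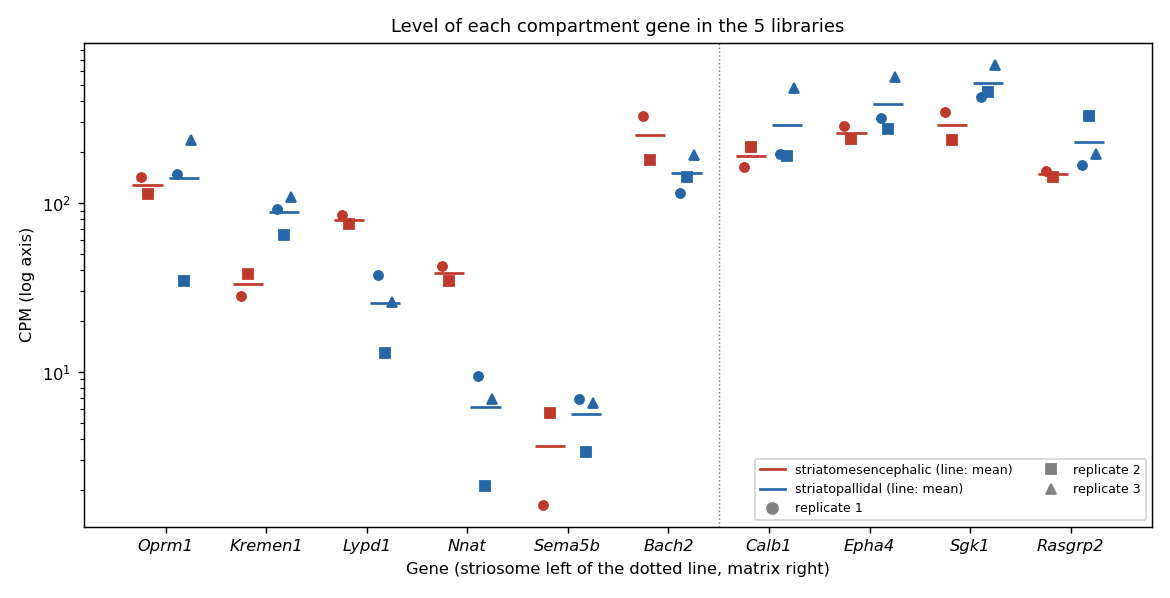
Level of the 10 genes in CPM (log axis), 1 point per library, shaped by replicate number and coloured red for striatomesencephalic and blue for striatopallidal, with group means as short lines. Lypd1 and Nnat have both red points above all blue points, Kremen1 has both below, and the Oprm1 points of the striatopallidal group run from 34.3 to 236 CPM.

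Among the striosome genes, Oprm1 encodes the mu opioid receptor, a receptor whose dense patches outline striosomes. It stood at 142 and 113 CPM in striatomesencephalic replicates 1 and 2, and at 149, 34.3 and 236 CPM in striatopallidal replicates 1, 2 and 3. The striatopallidal libraries hold both the highest and the lowest value, 6.87-fold apart, with the striatomesencephalic libraries between them. Means were 127 ± 20.9 CPM (SD, n = 2) and 140 ± 101 CPM (SD, n = 3), and the log2 ratio was -0.10 ± 0.67 (SE). The sign turned with the choice of library or tool: it was 0.49 without striatopallidal replicate 3, -0.52 without striatopallidal replicate 2, and 0.38 in the authors' deposited table once turned to the same direction. No direction can be given for Oprm1 from these libraries.

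Kremen1 encodes a membrane receptor for Dickkopf proteins, through which it dampens Wnt signalling. It stood at 28.2 and 38.1 CPM in striatomesencephalic replicates 1 and 2, against 92.3, 64.4 and 109 CPM in striatopallidal replicates 1, 2 and 3. All 3 striatopallidal libraries were above both striatomesencephalic libraries. Means were 33.2 ± 7.01 CPM (SD, n = 2) and 88.5 ± 22.5 CPM (SD, n = 3). The log2 ratio of -1.46 ± 0.51 (SE) ran against that of Lypd1 and Nnat, although all 3 are listed as striosome genes. It had an adjusted p of 0.779 in edgeR and 0.164 in DESeq2, and kept a negative sign in all 13 alternatives, from -1.72 to -1.24.

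Lypd1 encodes a small membrane-anchored protein of the Ly6 family, some of whose members bind nicotinic acetylcholine receptors. It stood at 84.7 and 74.4 CPM in striatomesencephalic replicates 1 and 2, and at 37.3, 12.9 and 26.0 CPM in striatopallidal replicates 1, 2 and 3. The striatomesencephalic libraries lay close together, 1.14-fold apart, and above every striatopallidal library. Means were 79.5 ± 7.28 CPM (SD, n = 2) and 25.4 ± 12.2 CPM (SD, n = 3), for a log2 ratio of 1.65 ± 0.57 (SE) and an adjusted p of 0.779 in edgeR and 0.152 in DESeq2. The lowest value, as for Oprm1 and Nnat, was that of striatopallidal replicate 2, and without it the log2 ratio was 1.42.

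Nnat encodes neuronatin, a small protein of the endoplasmic reticulum membrane, from an imprinted gene. It stood at 42.2 and 34.3 CPM in striatomesencephalic replicates 1 and 2, on 879 and 775 counts, and at 9.48, 2.10 and 6.92 CPM in striatopallidal replicates 1, 2 and 3, on 226, 52 and 155 counts. The groups did not overlap, and the gap was wide beside the counting error, whose 95% Poisson interval for the lowest library was 1.57 to 2.75 CPM. Means were 38.2 ± 5.58 CPM (SD, n = 2) and 6.16 ± 3.75 CPM (SD, n = 3). The log2 ratio of 2.66 ± 0.77 (SE) was the largest in size among the 10 members and exceeded that of 91.9% of all genes tested. It ran from 2.31 to 2.997 over the 13 alternatives, with an adjusted p of 0.0270 in DESeq2, 0.238 in the exact test of edgeR, and 0.557 to 1 in the other alternatives.

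Sema5b encodes a semaphorin, a guidance cue for growing neurites. It was the member with the fewest counts, at 34 and 128 in the striatomesencephalic libraries, replicate 1 first, and 165, 83 and 146 in striatopallidal replicates 1, 2 and 3. In CPM these were 1.63 and 5.66 against 6.92, 3.35 and 6.51, so the groups overlapped and the 2 striatomesencephalic libraries differed 3.47-fold between themselves. Their 95% Poisson intervals, 1.13 to 2.28 and 4.72 to 6.73 CPM, do not touch. The log2 ratio was -0.63 ± 1.03 (SE), and it was 0.02 without striatomesencephalic replicate 1 and -1.81 without striatomesencephalic replicate 2. The sign of Sema5b thus rested on 1 library.

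Bach2 encodes a transcription factor that pairs with small Maf proteins and represses its targets. It stood at 325 and 178 CPM in striatomesencephalic replicates 1 and 2 and at 114, 143 and 191 CPM in striatopallidal replicates 1, 2 and 3. The highest value belonged to striatomesencephalic replicate 1, while striatomesencephalic replicate 2 lay among the striatopallidal libraries. Means were 252 ± 104 CPM (SD, n = 2) and 149 ± 39.2 CPM (SD, n = 3), for a log2 ratio of 0.65 ± 0.47 (SE) and an adjusted p of 0.824 in edgeR's quasi-likelihood test. The log2 ratio was 0.18 without striatomesencephalic replicate 1, 0.41 without striatopallidal replicate 1 and 1.01 without striatomesencephalic replicate 2.

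The 4 matrix genes shared 1 direction, though none had an unadjusted p below 0.05. Calb1 encodes calbindin, the calcium-binding protein by which the matrix is stained. It stood at 162 and 214 CPM in striatomesencephalic replicates 1 and 2, and at 194, 190 and 479 CPM in striatopallidal replicates 1, 2 and 3. Apart from striatopallidal replicate 3 the libraries lay within one range. The log2 ratio was -0.66 ± 0.50 (SE), and -0.19 without striatopallidal replicate 3.

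Epha4 encodes a receptor for ephrins, cell-surface cues that sort cells and axons. It stood at 284 and 237 CPM in striatomesencephalic replicates 1 and 2, and at 318, 271 and 558 CPM in striatopallidal replicates 1, 2 and 3. Striatopallidal replicate 3 was again highest, and striatopallidal replicate 2 lay between the striatomesencephalic libraries. With TMM scaling, which adjusts each library for its make-up, the groups no longer overlapped, since striatopallidal replicate 2 came to 351 and striatomesencephalic replicate 1 to 272 CPM. The log2 ratio was -0.61 ± 0.40 (SE), and -0.32 without striatopallidal replicate 3.

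Sgk1 encodes a serum- and glucocorticoid-induced kinase. It stood at 345 and 236 CPM in striatomesencephalic replicates 1 and 2, and at 423, 450 and 657 CPM in striatopallidal replicates 1, 2 and 3. Every striatopallidal library was above both striatomesencephalic libraries, with either scaling. Means were 290 ± 77.2 CPM (SD, n = 2) and 510 ± 128 CPM (SD, n = 3), for a log2 ratio of -0.90 ± 0.39 (SE), the largest in size among the matrix genes. The adjusted p was 0.779 in edgeR and 0.598 in DESeq2, and the value ran from -1.17 to -0.66 over the 13 alternatives.

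Rasgrp2 encodes CalDAG-GEFI, a calcium- and diacylglycerol-responsive activator of the small GTPase Rap1. It stood at 154 and 143 CPM in striatomesencephalic replicates 1 and 2, and at 167, 328 and 193 CPM in striatopallidal replicates 1, 2 and 3. In plain CPM all striatopallidal libraries were higher, but with TMM scaling striatomesencephalic replicate 1 at 148 CPM edged above striatopallidal replicate 1 at 147 CPM. The log2 ratio was -0.80 ± 0.55 (SE), and it was -0.20 without striatopallidal replicate 2, the library with the highest value.

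**Figure D2:**
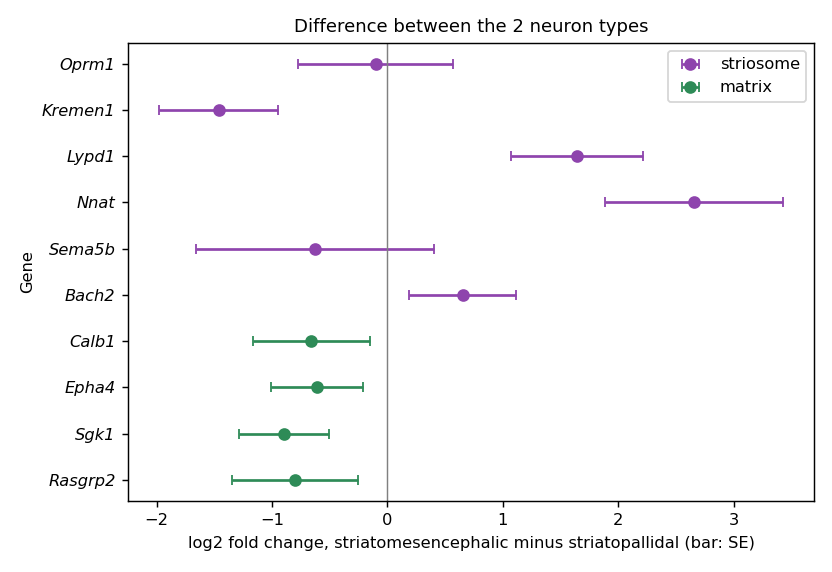
Fitted log2 ratio of each gene, striatomesencephalic over striatopallidal level, on the x axis, with bars of 1 SE. The 6 striosome genes in purple run from -1.46 to 2.66, and the 4 matrix genes in green from -0.90 to -0.61.

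Seen by compartment, 3 striosome genes had a positive and 3 a negative log2 ratio, with a median of 0.28, and 4 of 4 matrix genes had a negative one, with a median of -0.73. Over all genes tested the median was -0.06, with 6550 positive and 7261 negative. The striosome split was 4 positive and 2 negative in 5 of the 13 alternatives, and the striosome median ran from 0.10 without striatomesencephalic replicate 1 to 0.63 without striatopallidal replicate 3 and 0.73 with the replicate number as a block. The 4 matrix genes remained negative in all 13 alternatives, which share libraries and are not separate tests. In plain CPM the groups did not overlap for 5 of the 10 members, against 21.1% of all genes. Lypd1 and Nnat were the 2 above, against 11.2% of all genes, and Kremen1, Sgk1 and Rasgrp2 the 3 below, against 9.91%. With TMM scaling it was also 5 of 10, with Epha4 in the place of Rasgrp2, against 21.6% of all genes, of which 10.4% lay above and 11.2% below. In striosome genes alone, 2 of 6 at an unadjusted p below 0.05 were higher, against 2.93% of all genes, and 1 of 6 was lower, against 3.14%. With 10 genes chosen when results were known, these counts are a description.

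Within each library, the compartments were set against each other by the mean over each set of log2(CPM + 1), every gene first centred on the midpoint of its group means so that transcript length drops out. Striosome minus matrix was 0.50 and 0.64 for the striatomesencephalic libraries, replicate 1 first, and 0.06, -1.20 and -0.57 in striatopallidal replicates 1, 2 and 3. Both striatomesencephalic libraries were above all striatopallidal libraries, and striatopallidal replicate 1 lay nearest to them. The group means were 0.57 ± 0.10 (SD, n = 2) and -0.57 ± 0.63 (SD, n = 3), a difference of 1.14 on the log2 scale beside a pooled SD of 0.52. The centring makes these means equal in size and opposite in sign, so their signs carry no information. Only differences between libraries or groups are read. No test was made of this score over chosen genes, and with so few libraries the smallest two-sided p of an exact permutation test would be 0.1.

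Single libraries and genes weighed on that difference. The striosome mean was 0.27 and 0.28 in the striatomesencephalic libraries and 0.04, -1.02 and 0.15 in striatopallidal replicates 1, 2 and 3, so that replicate 2 alone was far off. The matrix mean was -0.23 and -0.36 in the striatomesencephalic libraries and -0.02, 0.18 and 0.72 in striatopallidal replicates 1, 2 and 3, where replicate 3 was highest. Without striatopallidal replicate 2 the difference between groups was 0.82. Leaving out Nnat gave 0.73, the lowest of the values with 1 gene left out, and leaving out Kremen1 gave 1.52, the highest.

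**Figure D3:**
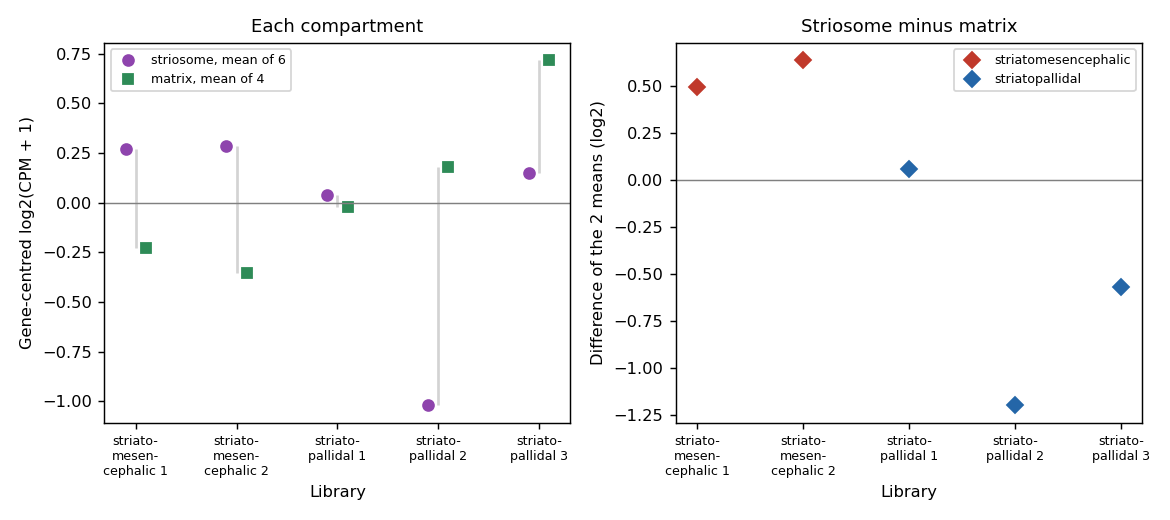
Left, mean gene-centred log2(CPM + 1) of the 6 striosome genes and of the 4 matrix genes in each library. Right, their difference, at 0.50 and 0.64 in striatomesencephalic libraries in red and from -1.20 to 0.06 in striatopallidal libraries in blue.

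Summed CPM gave the same order of groups. The 6 striosome genes together held 624 and 443 CPM in striatomesencephalic replicates 1 and 2, and 408, 260 and 576 CPM in striatopallidal replicates 1, 2 and 3, which overlap. The 4 matrix genes together held 945 and 829 CPM against 1102, 1239 and 1886 CPM, which do not. Striosome over matrix was 0.660 and 0.535 in striatomesencephalic replicates 1 and 2, above the 0.371, 0.210 and 0.305 of striatopallidal replicates 1, 2 and 3. The level of this ratio depends on the lengths of the transcripts summed, so only its change between libraries is read. That change is weighted towards the genes with the most counts in each sum.

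The members did not vary as 2 blocks. Nnat and Lypd1 shared a pattern, highest in the striatomesencephalic libraries and lowest in striatopallidal replicate 2. Oprm1 shared the low in striatopallidal replicate 2 but was highest in striatopallidal replicate 3, where Kremen1, Calb1, Epha4 and Sgk1 were highest too. Rasgrp2 was highest in striatopallidal replicate 2. The biological coefficient of variation fitted by edgeR ran from 0.414 for Sgk1 to 0.833 for Sema5b, against a median of 0.749 over all genes.

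**Figure D4:**
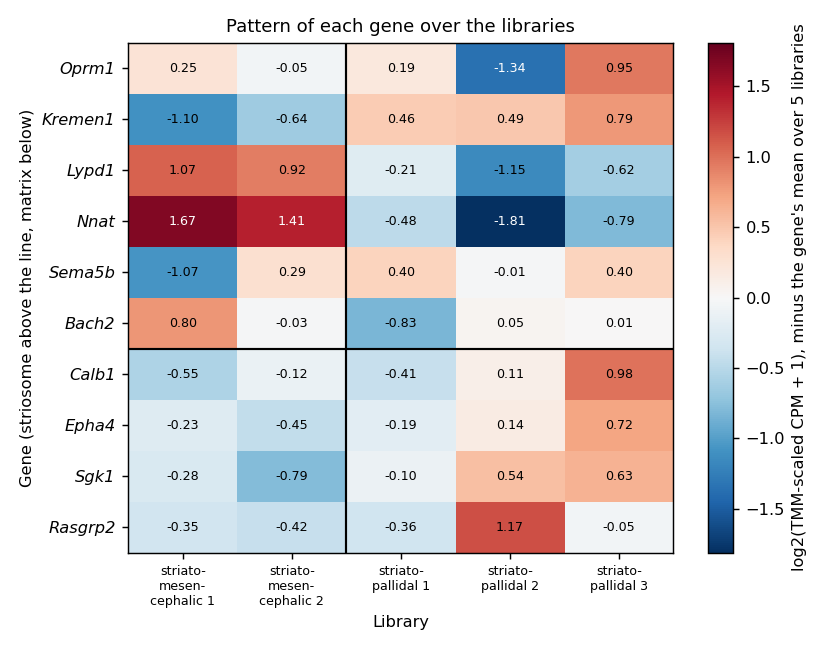
Each gene's log2(TMM-scaled CPM + 1) in each library minus its mean over the 5 libraries, red above and blue below that mean. Nnat ranges from 1.67 in striatomesencephalic replicate 1 to -1.81 in striatopallidal replicate 2, and the highest Oprm1, Calb1, Epha4, Sgk1 and Kremen1 cells are all in striatopallidal replicate 3.

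Likeness to other genes was measured as the root mean square difference of such centred values over the 5 libraries, among 8643 named genes with a mean of at least 10 CPM. Nearest to Oprm1 was Usp45 at 0.05 log2 units, and to Epha4 Vps29 at 0.06. Nearest to Rasgrp2 was Cst3 at 0.06, to Bach2 Sat1 at 0.07, to Sgk1 Aspa at 0.09 and to Calb1 Shisa7 at 0.10. Kremen1 was nearest to Caly at 0.10, Sema5b to Parp6 at 0.11, Lypd1 to Ube2z at 0.15 and Nnat to Igsf1 at 0.19. For none of the 10 was another member nearest. With so many candidates and 5 libraries, nothing is read from these matches.

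Other genes known for striosomes were mostly higher in striatomesencephalic libraries, 9 of 10 with a median of 0.81, and 8 of 10 without striatopallidal replicate 2. None passed edgeR's threshold, and 3 had an unadjusted p below 0.05, all higher: Pdyn, the dynorphin precursor, Tac1, the substance P precursor, and the acid-sensing channel subunit Asic4, with log2 ratios of 1.86 ± 0.32, 1.13 ± 0.31 and 2.62 ± 1.05 (SE). Pdyn, Tac1 and Isl1 are also known as genes of direct pathway neurons, so their direction is no separate evidence on striosomes. Whether the rest of the list, Foxp2 included, differs by pathway apart from compartment was not tested. The others were Isl1 at 2.04, Tshz1 at 0.92, Foxp2 at 0.70, the AMPA receptor gene Gria1 at 0.59, Nr4a1 at 0.56 and Rasgrp1 at 0.24, with Col11a1 at -0.73. Foxp2, a forkhead transcription factor, stood at 722 and 620 CPM on the striatomesencephalic side and at 362, 388 and 409 CPM on the striatopallidal side, and Gria1 at 436 and 411 with 252, 240 and 302 CPM. Neither overlapped, and 7 of the 10 genes lay wholly above in plain CPM, against 11.2% of all genes.

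Other genes known for the matrix did not follow the 4 matrix members. Of 7, 4 were higher and 3 lower on the striatomesencephalic side, with a median of 0.06. Over the 13 alternatives 3 to 6 of 7 were higher, and the median ran from -0.33 without striatopallidal replicate 1 to 0.51 without striatopallidal replicate 3 and 0.59 with the replicate number as a block. At an unadjusted p below 0.05 there was 1. That was Plxnd1, a semaphorin receptor, with a log2 ratio of 1.69 ± 0.56 (SE). It stood at 188 and 691 CPM on the striatomesencephalic side and 147, 117 and 128 CPM on the other. Whether its direction goes with axon target apart from compartment was not tested. The guanine deaminase gene Gda had 0.82 ± 0.52 (SE), with 508 CPM in striatomesencephalic replicate 1 and 152 to 218 CPM in the other libraries. Cdh8, a cadherin, was the only other gene of the 7 without overlap, at -0.57 ± 0.38 (SE).

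The exchange factors Rasgrp1 and Rasgrp2 are paralogs, the former known for striosomes and the latter for the matrix. The ratio of Rasgrp1 to Rasgrp2 counts was 0.661 and 0.857 for the striatomesencephalic libraries and 0.828, 0.138 and 0.528 in striatopallidal replicates 1, 2 and 3. The groups overlapped, and striatopallidal replicate 2 was far below the rest. In the list of exchange factors and GTPases, Rasgrp1 included, none had an unadjusted p below 0.05, 2 of 8 being higher with a median of -0.19. Rapgef2 had -0.67 ± 0.33 and Rasgrp3 -1.86 ± 0.95 (SE).

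**Figure D5:**
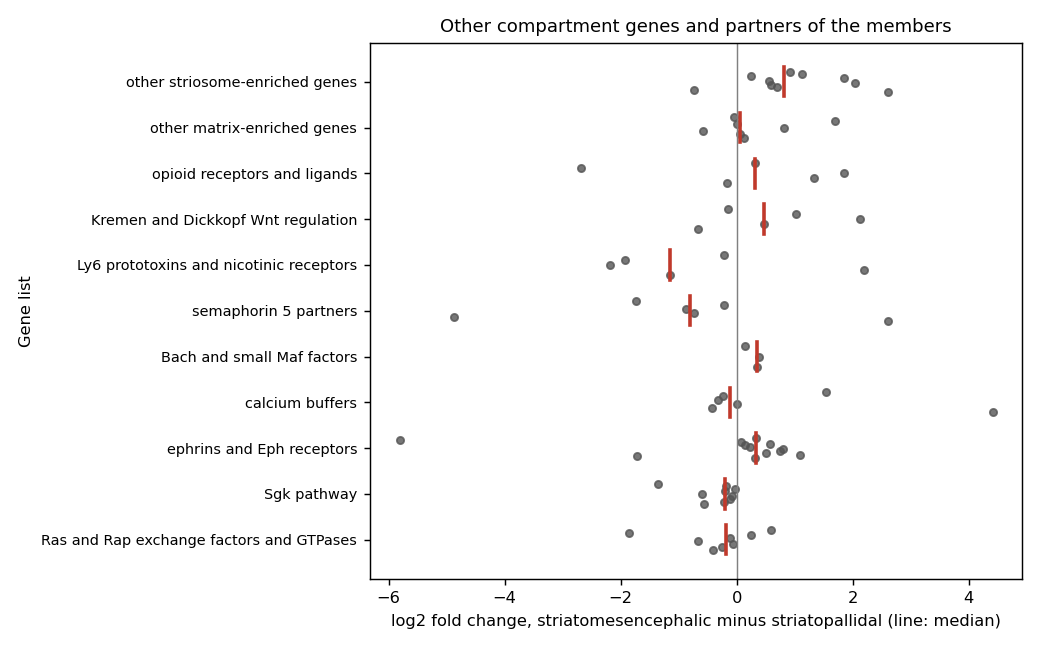
Log2 ratio, striatomesencephalic over striatopallidal level, of every tested gene (points) in the other compartment lists and the lists of partners, with the median of each list as a red line. The median is 0.81 for other striosome genes and 0.06 for other matrix genes.

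Partners of the striosome members were read from lists made around each gene. Of the opioid system, 5 genes were tested, 3 higher and 2 lower, and Penk, the enkephalin precursor, had -2.69 ± 0.34 (SE) beside Pdyn above. DESeq2 called both, with an adjusted p of 0.000204 for Penk and 0.0270 for Pdyn, while the receptor genes Oprd1 at -0.16 and Oprk1 at 1.34 overlapped between the groups. Around Kremen1, the Dickkopf genes Dkk3 and Dkk4 had 2.13 ± 0.85 and 1.03 ± 1.07 (SE), and 3 of 5 genes were higher. Dkk3 was thus on the opposite side to Kremen1, at 120 and 37.3 CPM against 16.1, 5.04 and 32.97 CPM.

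Around Lypd1, 5 genes of Ly6 proteins and nicotinic receptors were tested, 4 of them lower, with a median of -1.16. Lynx1, another Ly6 gene, had -1.93 ± 0.81 (SE), opposite to Lypd1, and the receptor subunit gene Chrnb2 had 2.19 ± 1.56 (SE). Chrnb2 had 4 and 340 counts in striatomesencephalic replicates 1 and 2, against 58, 16 and 46 in the striatopallidal libraries, so its sign rested on 1 library. Around Sema5b, 5 of 6 genes were lower, with a median of -0.81. Its paralog Sema5a stood at 48.0 and 58.2 CPM against 151, 165 and 180 CPM, a log2 ratio of -1.74 ± 0.46 (SE). The neuropilin genes Nrp1 and Nrp2 had 2.62 ± 0.92 and -4.87 ± 1.92 (SE). Nrp1 stood at 40.2 and 241 CPM in striatomesencephalic replicates 1 and 2, against 31.2, 5.81 and 34.5 CPM. Nrp2 had 7 counts in striatopallidal replicate 1 against 578 and 352 in replicates 2 and 3, and an adjusted p of 0.0431 in DESeq2. Around Bach2, 3 of 3 genes were higher, none at an unadjusted p below 0.05, with Mafk at 0.38 and Mafg at 0.35.

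Partners of the matrix members varied as widely. Among calcium-binding proteins, 3 values were positive and 3 negative, and the visinin-like gene Hpcal4 had 1.54 ± 0.33 (SE), at 821 and 1152 CPM against 361, 220 and 411 CPM. Calb2, the calretinin gene, had 51 and 277 counts in striatomesencephalic libraries and 12, 9 and 2 in striatopallidal libraries, a log2 ratio of 4.42 ± 1.35 (SE), opposite in sign to Calb1, with an adjusted p of 0.0414 in DESeq2. Of 12 ephrins and Eph receptors, 10 were higher, with a median of 0.33, and none had an unadjusted p below 0.05. Without striatomesencephalic replicate 1 it was 5 of 12, with a median of -0.40. Ephb2 had -5.81 ± 2.49 and Efna5 -1.72 ± 1.16 (SE), each with its highest value in striatopallidal replicate 2. In the Sgk list, 9 of 9 Ensembl genes were lower with a median of -0.19, 7 of 9 without striatopallidal replicate 2 and 5 of 9 without striatomesencephalic replicate 2. Sgk3 had -1.35 ± 0.67 and Fkbp5 -0.57 ± 0.55 (SE), and the values of the glucocorticoid receptor gene Nr3c1 were -0.60 and -0.19 for its 2 Ensembl identifiers.

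Markers of striatal projection neurons were abundant, and markers of glia were detected beside them. The 12 projection neuron markers used were detected in every library, with sums from 14293 to 18606 CPM, and Pde10a (-0.54) and Meis2 (0.25) had the smallest p among them. Oligodendrocyte markers, 11 of 12 matched, summed to 6030 and 7503 CPM in striatomesencephalic and 5408 to 7308 CPM in striatopallidal libraries, and the 10 astrocyte markers to 1177 and 1400 against 1062 to 1567 CPM. These overlapped between groups, as did 4 microglial markers (18.2 to 32.9 against 29.6 to 89.7 CPM), 5 vascular markers (49.6 to 98.0 against 71.4 to 140 CPM) and 2 ependymal markers (15.0 to 48.3 against 6.65 to 25.2 CPM). Astrocytic Gfap stood apart from its list, at 11.5 and 3.85 CPM against 243, 175 and 87.7 CPM, a ratio of -4.56 ± 0.82 (SE) that DESeq2 called (adjusted p = 5.72e-06), beside 2.63 ± 1.25 for Aldh1l1. In the other glial, vascular and ependymal lists the smallest p belonged to Ugt8 (-1.45), Mag (-1.12), Tmem119 (-3.62), C1qb (-2.21), Flt1 (-1.12), Vwf (1.91), Rarres2 (2.01) and Enkur (-0.69). Interneuron markers, 6 of 10 matched, did not overlap, at 83.6 and 109 CPM against 127 to 166 CPM, a difference in the direction of the matrix members. Of these 6, 2 were higher and 4 lower on the striatomesencephalic side, and Calb2 (4.42) and Chat (-3.42) point opposite ways. Chat had 14 and 29 counts in striatomesencephalic libraries and 50, 476 and 97 in striatopallidal replicates 1, 2 and 3. Slc5a7, in the same list, had 2.04 ± 0.92 (SE), opposite to Chat, and did not overlap between the groups. Markers of cortical glutamatergic neurons, 2 of 7 matched, did not overlap either, at 131 and 82.9 CPM against 14.2 to 28.1 CPM, the direction of Nnat and Lypd1, with Rorb at 2.24 ± 0.59 and Cux2 at 2.63 ± 1.41 (SE). Markers were matched only through the authors' deposited comparison, which holds 12054 genes, beside 32285 counted. Of the matched markers in these lists, 0 were at 0 in all libraries. The levels of unmatched markers were not read, so that count does not speak for them. The part of such cells in the levels of the 10 members was not tested.

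In the authors' deposited table, which holds 12054 genes and is turned here to striatomesencephalic over striatopallidal, its sign having been read from the gene levels, 9 of the 10 members had the sign of the fit above, Oprm1 being the exception. The log2 ratios in the authors' deposited table were 2.99 for Nnat, 1.84 for Lypd1, 0.71 for Bach2, -0.70 for Sema5b and -1.36 for Kremen1. For the matrix genes the authors' deposited table gave -0.81 for Sgk1, -0.62 for Rasgrp2, -0.46 for Epha4 and -0.44 for Calb1. The adjusted p in the authors' deposited table was 0.927 to 0.957 for the 10 genes, so none passed there either.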

How the data were processed

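Counts per Ensembl gene were deposited by the authors, 1 table per library with 32285 genes, from polyadenylated RNA amplified with a single-cell kit per the labels' protocols. The submitters' processing notes name build Rnor_6.0 and the tools TopHat2, HTSeq, edgeR and limma. The sources used here do not give the step each served, its version or whether counting used strand. The authors' deposited comparison holds per gene a log2 ratio and a log2 level, p-values before and after adjustment, and a score each for the test statistic and the log odds, neither printed. It also paired identifiers with symbols. The authors' normalized and CPM tables were not used.

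Testing used edgeR 4.0.16 under R 4.3.3: filterByExpr, TMM scaling, glmQLFit and glmQLFTest on all 5 libraries, 13811 genes, Benjamini-Hochberg adjustment. DESeq2 1.42.0, limma 3.58.1 (voom) and the exact test of edgeR were alternatives. SE is the fold change divided by the square root of F. Every pair of libraries differed beyond counting noise (chi-square over its degrees of freedom 174 to 621), and each library was counted as 1 replicate. Poisson intervals and the floor cover counting error only, as no molecular identifiers are named in the labels.

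The members and lists were chosen with earlier results of these data known. All members are named. Of each list, genes with an unadjusted p below 0.05 are named, or the pair with the smallest p where fewer had it, and a few others beside them were named after their values were seen. 1 marker gene of the projection neuron list is not reported here. Promoter sequences are from RefSeq, build GRCr8, matched by symbol.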

Additional observations from a re-analysis of the deposited data

How the results depend on the processing

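Over 13 alternative settings (other scalings, no filter, other tests, each library left out, a replicate block) no member passed the adjusted threshold except Nnat in DESeq2, where the count of members past it was 1 in place of 0. The number of members at an unadjusted p below 0.05, 3 in the reported fit, was 1 to 3 with a library left out. It was 1, namely Nnat, when either striatomesencephalic library or striatopallidal replicate 3 was dropped. With the replicate number as a block, which leaves 1 degree of freedom, it was also 1. The labels share numbers across the groups without saying what a number marks, so the libraries were not taken as paired. The sign of Oprm1 reversed to 0.69 under the replicate block, to 0.11 with limma voom, to 0.04 without striatomesencephalic replicate 2 and to 0.49 without striatopallidal replicate 3, in a range of -0.52 to 0.49 with a library left out, against -0.10. That of Sema5b reversed to 0.016 without striatomesencephalic replicate 1, in a range of -1.81 to 0.02, against -0.63. The other 8 members kept their sign in all 13. A further setting used the labels' normalization factors alone, in place of library totals, and so left out sequencing depth. It moved the median of all genes from -0.06 to -0.18 and turned no member. It also brought Sgk1 below an unadjusted p of 0.05, for a count of 4. The labels' factors lie close to the TMM factors of the reported fit, and their effect together with library totals was not tested. The striosome minus matrix difference between groups stayed positive, from 0.73 to 1.52, in 19 alternatives, and was 0.82 to 1.45 with a library left out. Where a group was left with 1 library, that library is assumed to vary like the others. The cause of these shifts was not tested. The counts of Sema5b, 34 to 165, included the lowest of any member. Whether depth bears on its change of sign was not tested.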
